A study of Mus musculus with 6 samples.

Results

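The genes described here encode the enzymes that turn glucose carbon into pentose phosphates, serine, one-carbon units and nucleotides. They were taken by symbol from the deposited tables, and all 37 listed symbols were found among the 23935 in the tables. All 37 also passed the filter on low counts that left 16516 genes for testing. The RNA was from bone marrow-derived macrophages (BMDMs) of PKM2ΔMAC and PKM2FL/FL mice, with 3 libraries of each genotype and 1 library per mouse. PKM2 is the pyruvate kinase isoform that most proliferating and activated cells use at the last step of glycolysis, and it is encoded by Pkm. In PKM2ΔMAC mice the floxed Pkm allele is combined with LysM-Cre, a Cre recombinase inserted into the Lyz2 locus and active in myeloid cells. The PKM2FL/FL littermates carry the floxed allele without Cre, so that Cre and the loss of PKM2 come together in this comparison. Marrow of femur and tibia was grown with M-CSF for 7 days, and every culture of both genotypes is labelled as primed over 16 h with 10 ng/mL of LPS together with IFN-γ, the latter at 25 ng/mL. There was no unprimed culture among these samples, and the age of the mice is not given in the sources used here.

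The oxidative branch of the pentose phosphate pathway makes NADPH and ribulose 5-phosphate from glucose 6-phosphate, and the non-oxidative branch exchanges pentose phosphates with glycolytic sugars. PRPP synthetase activates ribose 5-phosphate to PRPP (phosphoribosyl pyrophosphate), on which purine rings are built and to which the pyrimidine ring is joined. Serine made from 3-phosphoglycerate feeds the folate cycle, which gives purine synthesis its formyl groups. In activated macrophages these routes are known for supplying NADPH to the respiratory burst and to nitric oxide and glutathione chemistry. Pyruvate kinase stands downstream of the points at which they leave glycolysis.

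Total counts per library were between 49957449 and 54524651, at which 3 counts, the limit that a count of 0 allows, correspond to between 0.0546 and 0.0604 CPM, counts scaled to a common library total. This floor covers counting error only. Pkm, the targeted gene, had 1714, 1698 and 1706 CPM in the PKM2FL/FL libraries and 987, 1212 and 1005 CPM in the PKM2ΔMAC libraries, in the order of replicates 1 to 3 that is kept below. This is a log2 difference, PKM2ΔMAC minus PKM2FL/FL, of -0.68 (SE 0.08, adjusted p = 0.00913 by edgeR). These counts cover the whole gene, the PKM1 isoform included, and the call was lost under 6 of 16 alternative settings, among them each that left out a PKM2FL/FL library (adjusted p between 0.0754 and 0.156 over the 6, log2 difference still between -0.68 and -0.61). Lyz2, which carries the Cre insertion, had between 17006 and 18721 CPM in PKM2FL/FL and between 24.3 and 31.8 CPM in PKM2ΔMAC. Of 12 macrophage markers, 5 were higher and 7 lower by sign in PKM2ΔMAC. Lyz2 was the 1 called lower and Itgam the 1 called higher (log2 difference 0.43, adjusted p = 0.00272 by edgeR), as under all 16 alternatives. Csf1r was at 3160 to 3435 CPM in PKM2FL/FL and 2925 to 3755 CPM in PKM2ΔMAC. Adgre1 was at 1666 to 1726 CPM and 1884 to 2236 CPM in that order (log2 difference 0.26, adjusted p = 0.236). Cd163 was at -0.64 on the log2 scale (adjusted p = 0.474), and the highest value of the 12 was 0.87, in a marker that was not called. The priming is known from the labels alone, since defining genes of the response to LPS and IFN-γ were low in all 6 libraries, with at most 0.49 CPM of Nos2, 0.328 CPM of Il6 and 0.910 CPM of Cxcl9. The 14 genes of that response list summed to 204 to 217 CPM in PKM2FL/FL and to 211 to 225 CPM in PKM2ΔMAC. Whether the cultures were primed as labelled was not tested, for want of an unprimed culture, and should not be taken as shown. The summed neutrophil markers were higher in PKM2ΔMAC (90.2 to 170 CPM) than in PKM2FL/FL (20.3 to 49.5 CPM), with 8 of 8 tested markers above 0 on the log2 scale and 0 called. Summed B cell markers were at 110 to 128 CPM in PKM2FL/FL and 118 to 153 CPM in PKM2ΔMAC, nearly all of it from Ighm (62.5 to 111 CPM) and Ebf1 (37.9 to 53.1 CPM over the 6 libraries), while Ms4a1 and Pax5 had no more than 22 counts. Stromal markers summed to 4932 to 5512 CPM and 4911 to 6230 CPM in the same order, with Col1a1 at 1958 to 2803 CPM. T and NK cell, erythroid, dendritic cell and mast cell markers each summed to at most 20.7 CPM. The part of these other cells in the values below was not tested.

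Of the 37 genes, Prps2, a PRPP synthetase, passed the test, and it was 2.00-fold higher in PKM2ΔMAC. No gene passed in the lower direction. Across all genes tested, 68 passed an adjusted p of 0.05, or 0.412%, of which 47 were higher (0.285%) and 21 lower (0.127%). By sign alone, 24 of the 37 genes were higher and 13 lower in PKM2ΔMAC, whereas 49.9% of all tested genes were higher. The median log2 fold change of the 37 was 0.038, against -0.00021 over all genes tested. Their median size of difference, regardless of sign, was 0.09 on the log2 scale, as it was for all genes at 0.09, and 33 of the 37 differed by less than 0.25. These genes were well counted, with 144 to 29013 counts per library, and the SE of their log2 fold changes was between 0.04 and 0.20 with a median of 0.06, against a median of 0.11 over all genes. At an unadjusted p under 0.05, 8 genes were higher (H6pd, Prps2, Psat1, Mthfd1l, Ppat, Atic, Impdh2 and Cad) and 2 were lower (Shpk and Rbks). Of all tested genes, 9.83% had such a p, 5.24% higher and 4.60% lower. These counts moved to 5 to 10 higher and 0 to 1 lower with 1 library left out, with 5 higher without PKM2FL/FL replicate 3 and without PKM2ΔMAC replicate 2, and to 12 higher and 1 lower on the log2 TPM scales. The libraries of the 2 genotypes did not overlap for those genes or for Phgdh, which makes 9 higher and 2 lower, beside 17.2% of all tested genes, 8.92% higher and 8.32% lower. In these bulk samples, fewer cells of a type and less RNA per cell cannot be told apart.

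**Figure D1:**
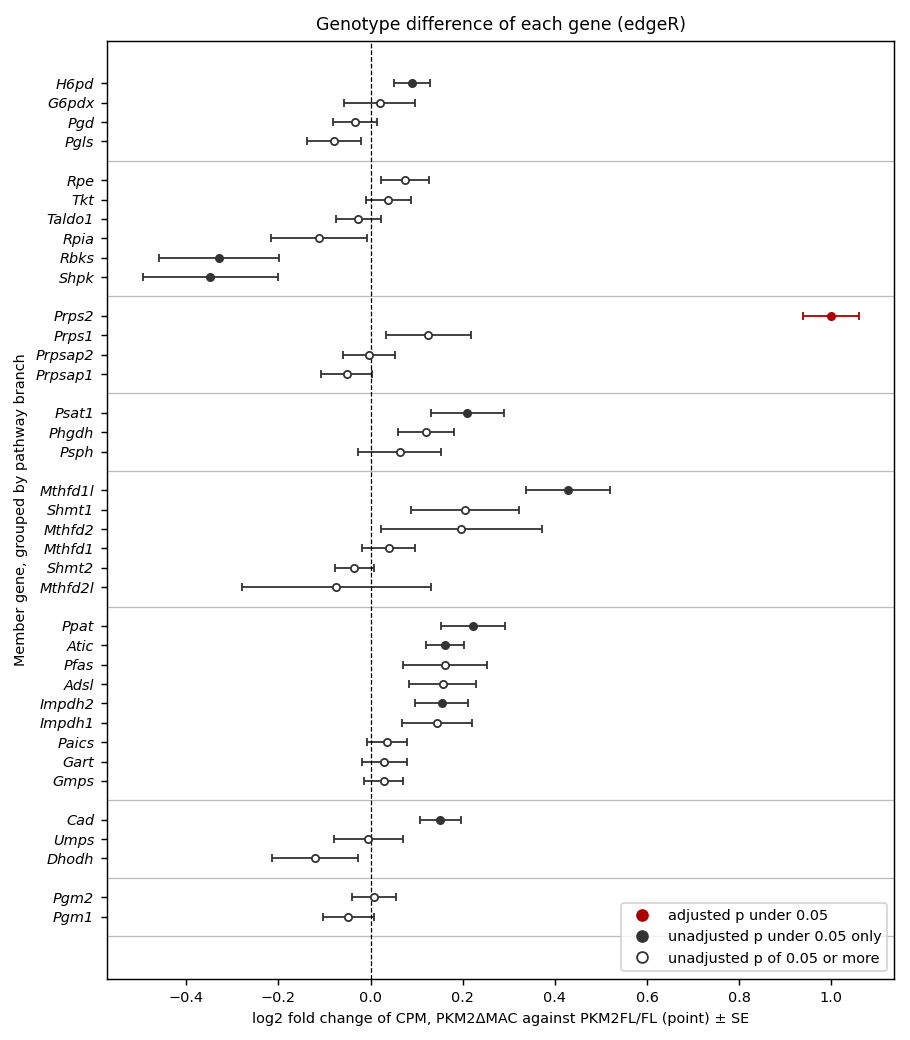
Log2 fold change of each of the 37 genes between PKM2ΔMAC and PKM2FL/FL from edgeR, grouped by step of the pathway, with bars of 1 SE and n = 3 libraries per genotype. Prps2 stands at 1.00, and the next highest, Mthfd1l, at 0.43.

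The levels of the 37 genes spanned more than 2 orders of magnitude when set per transcript length, in TPM, counts divided by transcript length and scaled to a common total. Taldo1 and G6pdx were the most abundant, with 512 ± 17.8 and 304 ± 10.9 TPM in PKM2FL/FL (SD, n = 3), followed by Pgd with 277 ± 4.06 TPM and Tkt with 160 ± 4.84 TPM. At the other end, Mthfd2l was at 2.39 ± 0.507 TPM, and Dhodh, Shmt1 and Shpk were at 4.65 ± 0.348, 4.65 ± 0.285 and 4.73 ± 0.562 TPM, which did not differ beyond their spread. In PKM2FL/FL the 4 oxidative pentose phosphate genes summed to 747 ± 12.4 TPM and the 6 non-oxidative and pentose kinase genes to 736 ± 21.9 TPM. Those sums were larger than the 321 ± 2.93 TPM of the 9 purine genes, the 141 ± 4.30 TPM of the 4 PRPP genes, the 138 ± 1.84 TPM of the 6 folate genes and the 88.3 ± 4.11 TPM of the 3 serine genes. The 3 pyrimidine genes summed to 55.5 ± 2.87 TPM. TPM were used to set genes side by side within a library. Since TPM add up to a fixed total and Lyz2 took 4.48% to 4.96% of it in PKM2FL/FL but at most 0.00876% in PKM2ΔMAC, the median log2 fold change of all genes was 0.06 on log2(TPM + 1), and genotypes were compared on CPM.

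**Figure D2:**
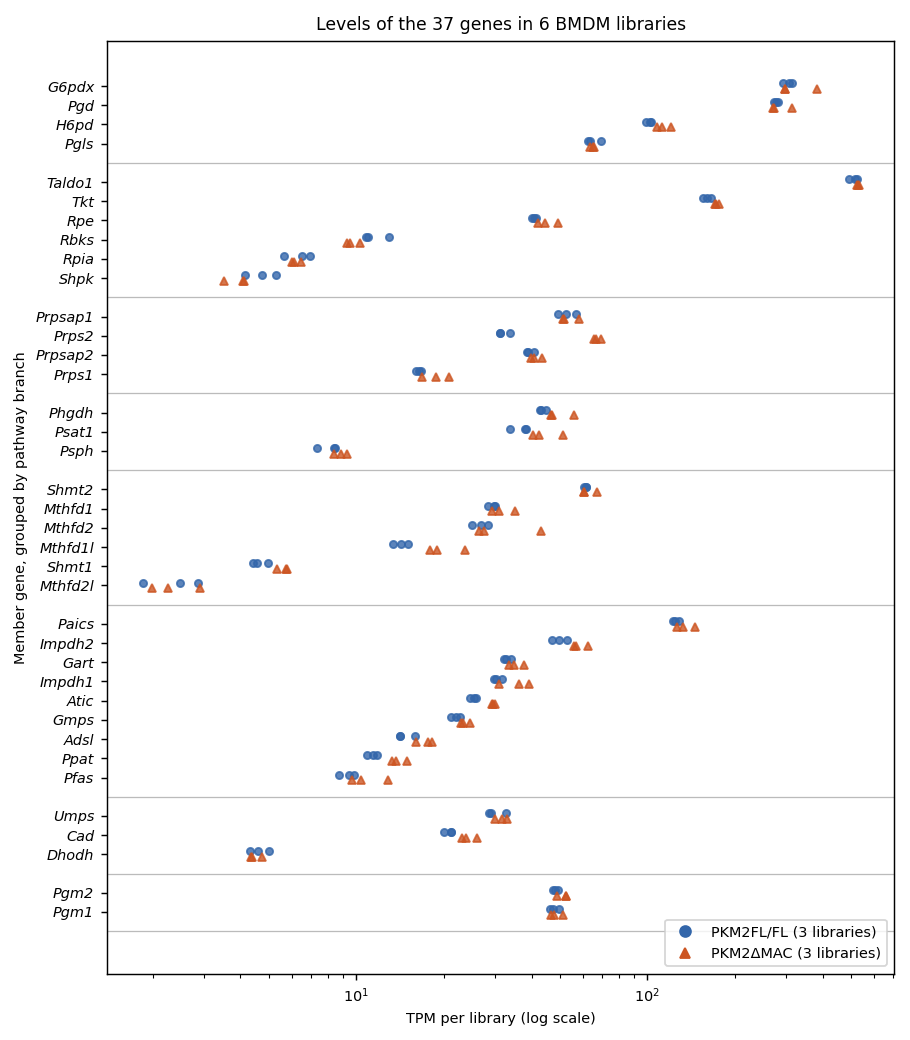
TPM of each of the 37 genes in the 6 libraries on a log axis, grouped by step, with 1 point per library and colour for genotype. Taldo1 lies highest and Mthfd2l lowest, and the points of the genotypes stand clearly apart for Prps2.

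The oxidative pentose phosphate enzymes differed little between the genotypes. G6pdx, the X-linked glucose 6-phosphate dehydrogenase that commits glucose to the pathway, was at 259, 272 and 272 CPM in PKM2FL/FL and at 252, 307 and 254 CPM in PKM2ΔMAC. The high value was that of PKM2ΔMAC replicate 2 and the genotypes overlapped, with a log2 difference of 0.020 (SE 0.08, adjusted p = 0.962). H6pd, which carries out the same first steps inside the endoplasmic reticulum, was at 150, 152 and 153 CPM in PKM2FL/FL and at 155, 166 and 163 CPM in PKM2ΔMAC. Its libraries did not overlap, but the log2 difference was 0.09 (SE 0.04) and did not pass over all genes (unadjusted p = 0.0469, adjusted p = 0.497). Pgls, the lactonase, and Pgd, which makes the second NADPH, had log2 fold changes of -0.08 and -0.033, and their libraries overlapped.

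In the non-oxidative branch, Taldo1 (transaldolase) was at 325, 301 and 328 CPM in PKM2FL/FL and at 318, 298 and 319 CPM in PKM2ΔMAC, with a log2 difference of -0.027 (SE 0.05, adjusted p = 0.905). Tkt (transketolase), Rpe and Rpia, the last 2 interconverting pentose phosphates, lay between -0.11 and 0.07 on the log2 scale, and none passed. The 2 sugar kinases of the group were the 2 genes with the largest negative differences of the 37. Shpk, sedoheptulokinase, which feeds sedoheptulose into the pathway, was at 4.08, 4.45 and 3.56 CPM in PKM2FL/FL and at 3.39, 3.20 and 2.90 CPM in PKM2ΔMAC. Rbks, ribokinase, was at 4.63, 4.60 and 5.55 CPM in PKM2FL/FL and at 3.83, 4.01 and 3.93 CPM in PKM2ΔMAC. All PKM2ΔMAC libraries lay below all PKM2FL/FL libraries for both genes. Their log2 fold changes were -0.35 (SE 0.15, unadjusted p = 0.0435, adjusted p = 0.490) for Shpk and -0.33 (SE 0.13, unadjusted p = 0.0334, adjusted p = 0.454) for Rbks.

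PRPP is made by the synthetase isoforms encoded by Prps1 and Prps2, and Prpsap1 and Prpsap2 encode proteins that associate with them. Prps2 was at 37.6, 34.0 and 34.6 CPM in PKM2FL/FL and at 71.0, 66.4 and 74.8 CPM in PKM2ΔMAC. The lowest PKM2ΔMAC library was thus well above the highest PKM2FL/FL library. The log2 difference was 1.00 (SE 0.06, adjusted p = 0.000135 by edgeR), and it was between 0.96 and 1.07 under 16 alternative settings, with adjusted p of at most 0.00517. The exact permutation test (two-sided) of Prps2 by itself gave p = 0.10, the smallest that 3 against 3 libraries allow and the value of every gene whose genotypes do not overlap. Prps1 did not pass the test, with 9.40, 9.39 and 9.15 CPM in PKM2FL/FL and 9.22, 10.9 and 10.4 CPM in PKM2ΔMAC (log2 fold change 0.13, SE 0.09, adjusted p = 0.720). Of the 50-base stretches of Prps1 transcripts, 9.93% also occur in Prps1l3, so that reads of these genes may be split, while for Prps2 the share found in any other gene was 0.0262%. The TPM of Prps2 made up 67.3%, 65.0% and 66.0% of the TPM of both synthetases in PKM2FL/FL and 79.9%, 75.9% and 78.7% in PKM2ΔMAC. Prps1l3, annotated as protein coding, was at 37.5 to 48.1 TPM, above Prps1, and with it in the total Prps2 made up 37.6%, 33.8% and 36.8% in PKM2FL/FL and 54.8%, 48.7% and 53.05% in PKM2ΔMAC. Together Prps1 and Prps2 were at 48.3 ± 1.54 TPM in PKM2FL/FL and 86.0 ± 2.53 TPM in PKM2ΔMAC (SD, n = 3), whereas Prpsap1 and Prpsap2 together were at 92.3 ± 5.02 and 95.04 ± 5.53 TPM, on the scale that by itself put the median gene 0.06 higher in PKM2ΔMAC (log2). Prpsap1, the more abundant of that pair, was at 48.5, 54.6 and 51.4 CPM in PKM2FL/FL and at 48.6, 51.8 and 48.6 CPM in PKM2ΔMAC, and its log2 difference was -0.05 (SE 0.06, adjusted p = 0.822).

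**Figure D3:**
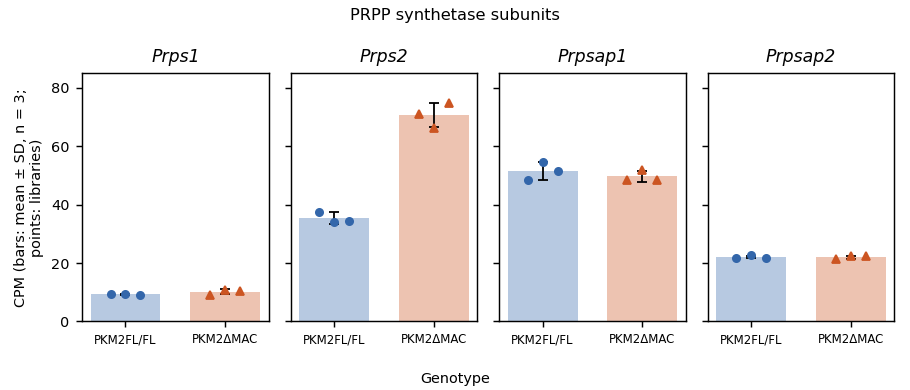
Levels of Prps1, Prps2, Prpsap1 and Prpsap2 in each library in CPM, with 1 point per library and a bar at the mean of each genotype. The PKM2ΔMAC libraries of Prps2 sit between 66.4 and 74.8 CPM, above 37.6 CPM, the highest PKM2FL/FL library.

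Prps2 is on the minus strand at chrX:167346322-167382749 (mm10, GENCODE M21). The 300 bases around its start in RefSeq on GRCm38.p6, 250 before and 50 after, are shown because it is the gene that passed the test. The window, chrX:167382700-167382999 on the minus strand, is 61% G or C and holds neither CACGTG (the E-box, read by MYC, MAX, USF and related factors) nor TGATGNAA (the C/EBP-ATF response element) on either strand.
Prps2: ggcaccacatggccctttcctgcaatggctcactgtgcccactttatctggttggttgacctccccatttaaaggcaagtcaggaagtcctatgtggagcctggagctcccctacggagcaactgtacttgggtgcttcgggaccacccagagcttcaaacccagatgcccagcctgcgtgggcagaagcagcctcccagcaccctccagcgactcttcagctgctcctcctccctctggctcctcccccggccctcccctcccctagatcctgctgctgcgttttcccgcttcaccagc
Among the 35 of 37 genes with an entry in that table, CACGTG was found in 3 (8.57%), Paics, Atic and Impdh2, beside 8.11% of 26742 genes. TGATGNAA was found in 1 (2.86%), Prps1, beside 4.44% of all. These are matches of letters within the window and nothing more.

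Genes near Prps2 were also higher in PKM2ΔMAC. Within 1 Mb either side, 7 other genes reached a mean of 1 CPM. Of these, the 3 that start 173, 118 and 52.2 kb from the start of Prps2, on the side towards which it is transcribed, passed the test. Tmsb4x, the actin-sequestering thymosin β4, was at 2232, 2225 and 2257 CPM in PKM2FL/FL and at 4434, 4667 and 4604 CPM in PKM2ΔMAC, with a log2 difference of 1.03 (SE 0.05, adjusted p = 1.90e-05). Tlr8, an endosomal receptor of RNA, was at 277, 273 and 277 CPM in PKM2FL/FL and at 569, 499 and 566 CPM in PKM2ΔMAC, with a log2 difference of 0.98 (SE 0.06, adjusted p = 0.000102). Tlr7, another such receptor, was at 356, 390 and 374 CPM in PKM2FL/FL and at 671, 781 and 606 CPM in PKM2ΔMAC, with a log2 difference of 0.88 (SE 0.09, adjusted p = 0.00953). No library of one genotype overlapped the other for any of the 3 genes, although Tlr7 lost its call under 5 of the 16 alternatives (adjusted p up to 0.0993, log2 difference still 0.84 to 0.94), among them each that left out a PKM2FL/FL library. The remaining neighbours, Ofd1, Trappc2, Rab9 and Tceanc, start 864 to 942 kb away and had log2 fold changes of -0.036, 0.07, -0.10 and -0.05, none of which passed. Of 427 X-linked genes with a mean of at least 1 CPM, 9 passed, all higher and all starting at or beyond position 167207093. They include Prps2 and the 3 neighbours, and the others start more than 1 Mb from it, at higher positions. The median of the 427 was 0.014. G6pdx and Prps1, the other X-linked genes among the 37, are at chrX:74409483-74429194 and chrX:140456613-140476140, and neither passed. Whether Prps2 was higher through loss of PKM2, through Cre at Lyz2 or through something at its locus cannot be told apart in this design.

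**Figure D4:**
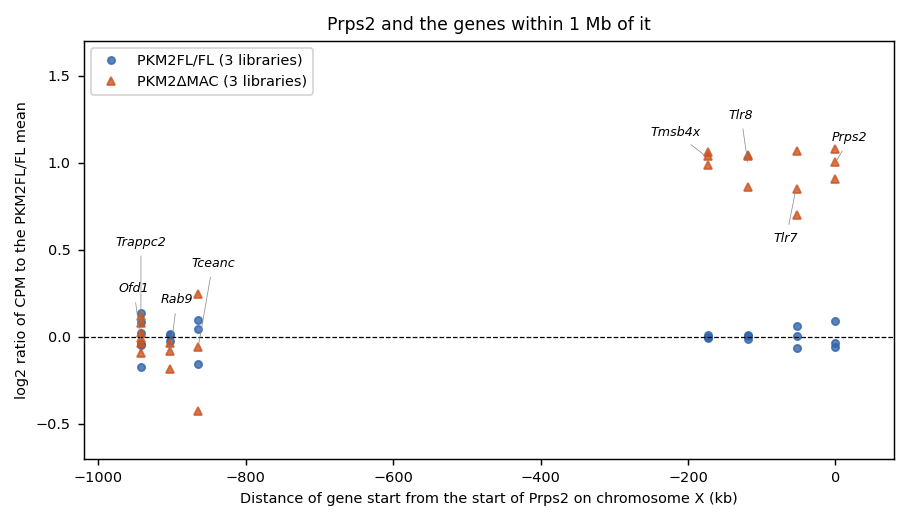
Log2 ratio of each library to the PKM2FL/FL mean for Prps2 and the 7 neighbours with a mean of at least 1 CPM, plotted against the distance of their starts from that of Prps2 in kb. Prps2, Tlr7, Tlr8 and Tmsb4x lie between 0.70 and 1.08 in PKM2ΔMAC, and the 4 genes 864 to 942 kb away between -0.42 and 0.24.

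For serine synthesis, all 3 genes were higher by sign and none passed, with a median log2 fold change of 0.12, or 0.062 without PKM2ΔMAC replicate 2. Phgdh, which takes 3-phosphoglycerate out of glycolysis, was at 31.0, 31.4 and 30.4 CPM in PKM2FL/FL and at 32.0, 36.3 and 32.5 CPM in PKM2ΔMAC (log2 fold change 0.12, SE 0.06, adjusted p = 0.563). Of its 50-base stretches 47.8% also occur in other genes, chiefly Gm7901, which was listed at 0 to 4 counts. Psat1, the aminotransferase of the next step, was at 47.0, 45.7 and 41.0 CPM in PKM2FL/FL and at 47.6, 57.1 and 49.97 CPM in PKM2ΔMAC (log2 fold change 0.21, SE 0.08, unadjusted p = 0.0277, adjusted p = 0.434). In both genes the genotypes did not overlap, but the lowest PKM2ΔMAC library of Psat1 lay close to the highest PKM2FL/FL library, and PKM2ΔMAC replicate 2 was the highest of the 6. Psph, the phosphatase that completes serine, overlapped between the genotypes, with a log2 fold change of 0.06.

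Among the folate enzymes, Mthfd1l, the mitochondrial synthetase that releases formate for use in the cytosol, had the largest difference. It was at 18.3, 18.9 and 17.0 CPM in PKM2FL/FL and at 23.2, 27.5 and 22.1 CPM in PKM2ΔMAC, so that the genotypes did not overlap. The log2 difference was 0.43 (SE 0.09), or 1.35-fold, with an unadjusted p of 0.00133 and an adjusted p of 0.147 by edgeR, while DESeq2 gave an adjusted p of 0.00775. Over the 16 alternatives the difference was between 0.33 and 0.49 and the adjusted p between 0.00775 and 0.575. Shmt2, which splits serine to glycine in mitochondria and was the most abundant folate enzyme of the 6, was at 55.03, 53.0 and 54.7 CPM in PKM2FL/FL and at 52.0, 54.5 and 52.4 CPM in PKM2ΔMAC. Its log2 difference was -0.035 (SE 0.04, adjusted p = 0.839). Mthfd2, the mitochondrial dehydrogenase, was at 26.9, 27.8 and 25.1 CPM in PKM2FL/FL and at 25.4, 39.4 and 26.6 CPM in PKM2ΔMAC. Its log2 difference of 0.20 (SE 0.17, adjusted p = 0.786) came with PKM2ΔMAC replicate 2 far above the other 5 libraries. The cytosolic enzymes Shmt1 and Mthfd1 were at 0.20 and 0.039 on the log2 scale and Mthfd2l at -0.07, with overlapping libraries. Mthfd1l is at chr10:3973118-4167081, and of 9 other genes within 1 Mb with at least 1 CPM, chosen for display after its value was seen, 1 passed, Ppp1r14c (log2 fold change 2.07, adjusted p = 0.0202), and their median was 0.05.

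All 9 genes of de novo purine synthesis had a log2 fold change above 0, between 0.029 and 0.22 with a median of 0.15, and none passed the test. The sign was the same for all 9 under each of the 16 alternatives, and the median was 0.095 without PKM2ΔMAC replicate 2. Some values came close to 0, with lowest values over the alternatives of 0.0026 for Gmps, 0.0037 for Paics, 0.0056 for Gart and 0.062 for Pfas. Ppat, the amidotransferase that uses PRPP in the committed step, was at 13.9, 14.2 and 14.96 CPM in PKM2FL/FL and at 16.2, 17.3 and 16.8 CPM in PKM2ΔMAC (log2 fold change 0.22, SE 0.07, unadjusted p = 0.0111, adjusted p = 0.341). Atic, which closes the ring to IMP, was at 59.1, 57.0 and 56.3 CPM in PKM2FL/FL and at 65.1, 62.8 and 65.0 CPM in PKM2ΔMAC (log2 fold change 0.16, SE 0.04, unadjusted p = 0.00360, adjusted p = 0.225). Impdh2, which directs IMP towards guanine nucleotides, was at 46.9, 40.9 and 43.7 CPM in PKM2FL/FL and at 47.4, 50.5 and 48.5 CPM in PKM2ΔMAC (log2 fold change 0.15, SE 0.06, unadjusted p = 0.0276, adjusted p = 0.433). In these 3 genes each PKM2ΔMAC library exceeded each PKM2FL/FL library. Impdh2 shares 39.3% of its 50-base stretches with the pseudogene Impdh2-ps, which had 640 to 863 counts, and reads may have been split between them. Paics, the most abundant gene of the group with 125 ± 2.70 TPM in PKM2FL/FL, was at 111, 113 and 112 CPM in PKM2FL/FL and at 109, 120 and 115 CPM in PKM2ΔMAC. These libraries overlapped, with a log2 difference of 0.036 (SE 0.04, adjusted p = 0.846). The trifunctional Gart and the amidotransferases Pfas and Gmps were at 0.029, 0.16 and 0.029 on the log2 scale, Adsl, the adenylosuccinate lyase, at 0.16, and Impdh1, the second IMP dehydrogenase, at 0.14, all with overlapping libraries.

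Ppat and Paics are neighbours that start head to head on opposite strands, at chr5:76913249-76951578 (minus) and chr5:76951307-76967509 (plus). Their annotated gene spans overlap by 272 bases. The sources used here do not state whether counting used strand, and exons within the overlap were not compared. Reads there thus cannot be assigned with certainty. The RefSeq windows of 250 bases before and 50 after each start are shown because each start lies within the annotated span of the other gene. They are chr5:76951529-76951828 on the minus strand for Ppat (66.7% G or C) and chr5:76951052-76951351 on the plus strand for Paics (65.7% G or C), with the E-box in capitals.
Ppat: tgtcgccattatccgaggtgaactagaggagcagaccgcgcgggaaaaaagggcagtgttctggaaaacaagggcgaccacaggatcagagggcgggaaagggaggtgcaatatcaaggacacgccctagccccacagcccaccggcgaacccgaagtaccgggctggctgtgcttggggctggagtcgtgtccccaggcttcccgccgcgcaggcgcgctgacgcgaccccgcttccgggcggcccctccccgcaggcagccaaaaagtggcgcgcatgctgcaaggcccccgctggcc
Paics: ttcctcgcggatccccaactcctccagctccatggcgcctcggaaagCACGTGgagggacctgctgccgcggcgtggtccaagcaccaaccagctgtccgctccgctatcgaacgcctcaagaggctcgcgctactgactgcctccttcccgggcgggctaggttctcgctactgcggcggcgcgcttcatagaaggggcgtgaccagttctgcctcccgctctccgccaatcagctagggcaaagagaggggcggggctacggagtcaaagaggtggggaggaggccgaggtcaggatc
The ratio of Paics to Ppat TPM was 11.0 ± 0.410 in PKM2FL/FL and 9.68 ± 0.141 in PKM2ΔMAC, with no overlap between the libraries. The ratios of Shmt2 to Shmt1, Mthfd2 to Mthfd2l and Impdh2 to Impdh1, taken in the same way, overlapped between the genotypes.

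Of the 3 pyrimidine genes, Cad, the trifunctional enzyme of the opening steps, was at 49.9, 48.7 and 46.9 CPM in PKM2FL/FL and at 52.2, 55.5 and 54.0 CPM in PKM2ΔMAC. The genotypes did not overlap, with a log2 difference of 0.15 (SE 0.05, unadjusted p = 0.00919, adjusted p = 0.329). Umps, which joins orotate to PRPP, was at 32.9, 28.6 and 28.4 CPM in PKM2FL/FL and at 28.8, 28.9 and 32.0 CPM in PKM2ΔMAC, and its log2 difference was -0.0048 (SE 0.07, adjusted p = 0.991). Dhodh, the mitochondrial dihydroorotate dehydrogenase, was at -0.12 on the log2 scale, with overlapping libraries. The phosphoglucomutases that link glucose 1-phosphate and pentose 1-phosphates to these routes had differences smaller than their SE. Pgm2 was at 36.0, 36.1 and 35.3 CPM in PKM2FL/FL and at 37.4, 35.5 and 35.2 CPM in PKM2ΔMAC, with a log2 difference of 0.0072 (SE 0.05, adjusted p = 0.979), and that of Pgm1 was -0.05 (SE 0.06). Both symbols have been used for either gene, and the transcript lengths implied by the tables assign Pgm1 to chromosome 4 and Pgm2 to chromosome 5.

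**Figure D5:**
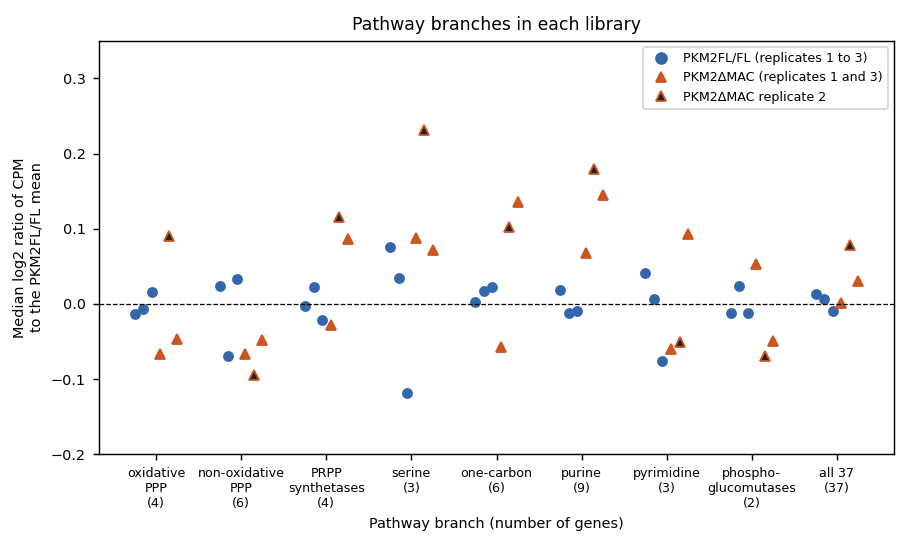
Median over the genes of each step of the log2 ratio of a library to the PKM2FL/FL mean, on log2(CPM + 0.1), with 1 point per library and colour for genotype. For purine synthesis the PKM2ΔMAC libraries are at 0.07, 0.18 and 0.14 and the PKM2FL/FL libraries at 0.018, -0.012 and -0.0098, and for the oxidative branch the genotypes overlap.

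PKM2ΔMAC replicate 2 was the highest of the 6 libraries for 18 of the 37 genes, and for 7 of the 9 purine genes, beside 24.9% of all tested genes. The same library stood apart in cell cycle genes. The 30 genes of that list, DNA replication and mitosis genes, summed to 956, 958 and 963 CPM in PKM2FL/FL and to 1148, 1574 and 1108 CPM in PKM2ΔMAC. That library was the highest of the 6 for 29 of the 30, the exception being Pcna, at 189, 160 and 158 CPM in PKM2FL/FL and at 211, 189 and 224 CPM in PKM2ΔMAC. All 30 were higher by sign and 0 passed with edgeR, while DESeq2 called 5 of its 195 higher genes among them. At an unadjusted p under 0.05, 13 were higher, beside 5.24% of all tested genes, and their median log2 fold change was 0.47. Without PKM2ΔMAC replicate 2 that median was 0.21, and edgeR called 2 of the 30 higher, among 164 higher genes in all. Likewise, 23 of the 37 genes were then higher by sign and their median was 0.019. The part of cell cycling in the values of the nucleotide genes was not tested.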

How the data were processed

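Total RNA of 6 BMDM cultures was made into libraries with a SMARTER kit. The authors deposited raw counts of reads per gene symbol, and a second table of TPM, in which the authors divided counts by gene length and scaled them to a fixed total. The submitters' processing notes name FastQC 0.12.1, Trim Galore 0.6.10, HISAT2 2.2.1, SAMtools 1.19.2, Subread 2.0.6 and build mm10, without their settings. Columns were matched to libraries by genotype and mouse number. For all 37 genes, count and TPM together implied the exon length of GENCODE M21.

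Counts were tested with edgeR 4.0.16 in R 4.3.3: filterByExpr, TMM factors (0.980 to 1.04), the robust quasi-likelihood test with genotype as its only term, and Benjamini-Hochberg adjustment over all 16516 genes, with calls at an adjusted p under 0.05. CPM were scaled by the TMM factors. Libraries of 1 genotype differed by more than sampling noise (chi-square per degree of freedom 7.55 to 53.8). They came from separate mice, so that this comparison with counting noise alone decides nothing further. The common dispersion, the squared relative spread beyond counting, was 0.0128. With at least 144 counts per library on each of the 37 genes, that spread limits precision more than depth does for most of them. On simulated counts for 16196 genes, 72% of 200 genes changed by 1 on the log2 scale were recovered and 12 unchanged genes were called. Smaller changes were not simulated, so this recovery does not speak to differences under 0.25, the size in 33 of the 37 genes. Alternatives were DESeq2 1.42.0, other normalizations, filters and dispersion estimates, a replicate block, limma-trend 3.58.1 on log2 TPM with a pseudocount of 1 or 0.1, and leaving out each library. Shared sequence was measured over 50-base stretches of annotated transcripts. Promoters were read from a RefSeq table of GRCm38.p6.

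The 37 genes, the lists and the tests were chosen with earlier results of these data known. By the rule for named genes, all 6 libraries are printed for those of the 37 that were called, had an unadjusted p under 0.05 or were the most abundant of their step, and other genes are named when they are Pkm, Lyz2, neighbours of Prps2, or called or most abundant in a related list. Genes named outside it (Prps1, Mthfd2, marker genes, neighbours of Mthfd1l and further genes of related lists) were chosen after their values were seen. Counts by sign under the alternatives were also added after seeing the data.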

Additional observations from a re-analysis of the deposited data

How the results depend on the processing

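Prps2 was called under all 16 alternatives, and none of the 37 genes was called lower under any. DESeq2 called 2 of the 37 higher, Mthfd1l being the second at a log2 fold change of 0.43. Over all genes, 47 were called higher and 21 lower. DESeq2 called 195 and 107, no filter on low counts 77 and 43, log2(TPM + 1) fewer lower genes (9), log2(TPM + 0.1) 24 and 8, and log2(TPM + 1) without a filter 27 and 9. Leaving out 1 library gave 17 to 164 higher and 5 to 135 lower, the upper ends without PKM2ΔMAC replicate 2, the cause of which was not tested. The median log2 fold change of the 37 was 0.11 on each TPM scale, where the median of all genes also moved, to between 0.05 and 0.07, and 0.019 to 0.069 with 1 library left out. The related NADPH list had 0 called lower, and 0 to 1 with 1 library left out, the 1 being Idh1 without PKM2ΔMAC replicate 2. Signs turned for 12 of the 37 under at least 1 alternative, none of them called. With 1 library left out, G6pdx was at -0.079 to 0.069, turning without PKM2FL/FL replicate 1 (-0.0028) or PKM2ΔMAC replicate 2, Pgm2 at -0.020 to 0.023, turning without PKM2FL/FL replicate 3 (-0.0038) or PKM2ΔMAC replicate 1, Taldo1 at -0.064 to 0.0060, Mthfd1 at -0.0094 to 0.084 and Mthfd2 at -0.032 to 0.31, these 3 turning without PKM2ΔMAC replicate 2, Mthfd2l at -0.26 to 0.073, turning without PKM2FL/FL replicate 3 or PKM2ΔMAC replicate 1 (0.035), Prpsap2 at -0.014 to 0.014, turning without PKM2FL/FL replicate 2 (0.013) or PKM2ΔMAC replicate 1, and Umps at -0.057 to 0.067, turning without PKM2FL/FL replicate 1 and PKM2ΔMAC replicates 1 (0.022) and 2 (0.019). On the 3 TPM scales, Prpsap1 was at 0.021, 0.022 and 0.021, Shmt2 at 0.036, 0.037 and 0.036, Taldo1 at 0.046 on each, Pgd at 0.038 on each, Pgm1 at 0.022, 0.023 and 0.022, Prpsap2 at 0.066, 0.068 and 0.066 and Umps at 0.067, 0.069 and 0.067, and with upper-quartile factors Umps was at 0.0023 and Prpsap2 at 0.0025. The mouse numbers are not described as a pairing, and deviations of same-numbered libraries correlated at 0.07, 0.12 and 0.011. PKM2ΔMAC replicate 3 correlated better with PKM2FL/FL replicate 1 (0.06) than with its own number. With the number as a replicate block, 54 genes were called higher and 28 lower, Prps2 was at 1.00 (adjusted p = 0.000164), and 0 of the 37 were lower at an unadjusted p under 0.05, against 2 without the block. With 3 libraries per genotype, adjusted p for differences as small as those of the purine genes did not pass, and no value here speaks to enzyme activity or flux.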

Other observations

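Genes that border the synthesis routes were read from 6 related lists, and none of their tested members was called in either direction by edgeR. Nucleotide salvage and kinases had 28 tested genes, of which 18 were higher and 10 lower by sign in PKM2ΔMAC, with a median log2 fold change of 0.030. At an unadjusted p under 0.05, 2 were higher and 1 lower, beside 5.24% higher and 4.60% lower of all tested genes. Hprt, which joins hypoxanthine and guanine to PRPP, was the most abundant of the 28, and its libraries overlapped. Its mean was 141 CPM in the PKM2FL/FL libraries and 155 CPM in those of PKM2ΔMAC, the order kept below (log2 fold change 0.13, SE 0.05, adjusted p = 0.405). Tk1, the thymidine kinase of dividing cells, was at 17.9 and 23.5 CPM (log2 fold change 0.39, SE 0.15, adjusted p = 0.460). Its PKM2ΔMAC libraries were at 19.6, 29.5 and 21.3 CPM, highest in replicate 2, and Tk1 is also in the cell cycle list. Ak4, a mitochondrial adenylate kinase, was at 13.7 and 11.3 CPM (log2 fold change -0.28, SE 0.08, adjusted p = 0.273). Neither gene overlapped between the genotypes. At an unadjusted p under 0.05, deoxynucleotide supply had 2 higher and 0 lower genes, and other folate and glycine enzymes 0 and 1. The list around ATF4 had 1 and 1, and other NADPH-forming enzymes 2 and 0.

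Deoxynucleotide supply had the highest median of the lists with more than 1 tested gene, 0.20, and 9 of its 10 genes were higher by sign. Dut, which removes dUTP, was at 9.87 and 12.6 CPM (log2 fold change 0.35, SE 0.09, adjusted p = 0.232), and Tyms, thymidylate synthase, at 6.07 and 7.88 CPM (0.38, SE 0.12, adjusted p = 0.355). Rrm2, the cycling subunit of ribonucleotide reductase, had 24.4 to 28.04 CPM across the PKM2FL/FL libraries and 28.4, 63.1 and 30.3 CPM in those of PKM2ΔMAC (0.64, SE 0.35, adjusted p = 0.636), so that replicate 2 carried most of its difference. Samhd1, the dNTP hydrolase and the most abundant of the list, was at 432 and 463 CPM (0.10, SE 0.05, adjusted p = 0.582). The list summed to 593 to 598 CPM in PKM2FL/FL and to 641, 739 and 607 CPM in PKM2ΔMAC replicates 1 to 3, so that replicate 2, which was also highest in 29 of the 30 cell cycle genes, was highest here. The part of cell cycling in these values was not tested.

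Of 18 other folate and glycine enzymes, 12 were higher and 6 lower by sign, with a median of 0.07, and Ggh, the most abundant, was at -0.06. Of 19 tested genes around ATF4, a transcription factor known for inducing serine synthesis enzymes, 9 were higher and 10 lower by sign, with a median of -0.024, and Atf4 itself was at 147 and 144 CPM (-0.030, SE 0.04, adjusted p = 0.856). Of 8 other NADPH-forming enzymes, 5 were higher and 3 lower by sign, with a median of 0.04, and Idh1, the most abundant, was at 268 and 246 CPM (-0.12, SE 0.07, adjusted p = 0.648). Nnt, the mitochondrial transhydrogenase, had 0.212 to 0.433 CPM in PKM2FL/FL and 0.396 to 1.05 CPM in PKM2ΔMAC, with overlapping libraries of 11 to 52 counts. Its log2 fold change was the largest of that list, at 1.10 (SE 0.48, unadjusted p = 0.0493, adjusted p = 0.507 by edgeR). Prps1l3, a paralog of the PRPP synthetases, was at 19.8 and 20.0 CPM (0.014, SE 0.09, adjusted p = 0.978).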
